A study of Mus musculus with 2 samples.

Results

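The genes described here are 10 transcripts of the immediate early response: *Fos*, *Fosb*, *Jun*, *Junb* and *Jund* (subunits of the transcription factor AP-1), *Atf3* and *Egr1* (transcription factors), *Ier2* (an early-induced nuclear regulator), *Zfp36* (tristetraprolin, an mRNA-decay factor) and *Dusp1* (a MAP kinase phosphatase). They were chosen by symbol, and all 10 were found among the 55386 features that each library measured. Single-cell RNA sequencing had been carried out on live CD45-positive cells of the aortic adventitia of RankCreRosa26eYFP mice. In these mice Cre under *Rank* switches on a yellow fluorescent reporter (*Yfp*) in macrophages of yolk-sac origin, and both groups carried it. The steady-state library came from untreated mice and was pooled from 3 animals, and the AngII library came from 2 animals after 10 days of angiotensin II (AngII), a vessel-constricting hormone that drives vascular inflammation, at 1.8 µg per kg per min. All animals were 16 weeks old. Each condition was 1 library, so no test between conditions could be made, and the 95% intervals given below cover counting error only. The study's methods describe AngII delivery by osmotic pumps implanted under the skin in an operation, and neither library came from mice with a saline pump. The pooled animals cannot be separated, and any difference between the libraries in surgery, handling or depth cannot be told apart from AngII.

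AP-1 is a dimer of a FOS and a JUN protein, or of 2 JUN proteins, that binds a short element in promoters and enhancers. Its genes are transcribed within minutes of a growth signal, a cytokine, mechanical strain or cell stress, when MAP kinases activate factors already bound at their promoters, among them SRF with its ELK partners and CREB. The products include their own brakes: ZFP36 promotes the decay of AU-rich messages, and DUSP1 removes phosphate from the MAP kinases. In macrophages the same genes precede the cytokine and chemokine response. The enzymatic digestion used to free cells from tissue is known to induce them as well. The study's methods describe digestion of the adult aorta with collagenase and elastase at body temperature, and CD45 bead enrichment and live sorting before capture. No undigested sample was measured here, so the state in the tissue and a response to isolation cannot be told apart in any value below.

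The promoters of 4 of the genes are shown because they hold letters of elements that CREB, SRF or the TATA-binding protein recognise. Each is the stretch of 250 bases that ends just before the RefSeq transcription start on GRCm38.p6, read 5′ to 3′ along the gene. Capitals mark TATAAA (searched on the gene's strand only), the CREB element TGACGTCA, its core TGACGT on either strand (ACGTCA on the other), and the CArG box to which SRF binds (either strand).
Fos (chr12:85473640-85473889, plus strand): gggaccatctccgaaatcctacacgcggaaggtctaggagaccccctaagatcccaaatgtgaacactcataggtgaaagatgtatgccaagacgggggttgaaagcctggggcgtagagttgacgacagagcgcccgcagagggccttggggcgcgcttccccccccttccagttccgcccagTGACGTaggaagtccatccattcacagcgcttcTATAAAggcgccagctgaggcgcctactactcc
Dusp1 (chr17:26508473-26508722, minus strand): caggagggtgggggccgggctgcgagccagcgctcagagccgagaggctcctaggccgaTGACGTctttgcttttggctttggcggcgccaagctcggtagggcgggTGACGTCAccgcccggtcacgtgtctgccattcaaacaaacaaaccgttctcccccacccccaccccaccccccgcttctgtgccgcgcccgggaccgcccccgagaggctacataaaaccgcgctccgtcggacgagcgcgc
Atf3 (chr1:191183334-191183583, minus strand): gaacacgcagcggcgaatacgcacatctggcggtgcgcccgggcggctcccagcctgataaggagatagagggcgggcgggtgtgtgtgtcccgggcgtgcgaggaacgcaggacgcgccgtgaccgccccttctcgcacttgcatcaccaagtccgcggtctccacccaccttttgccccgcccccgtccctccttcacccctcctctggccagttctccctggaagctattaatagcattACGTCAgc
Zfp36 (chr7:28379229-28379478, minus strand): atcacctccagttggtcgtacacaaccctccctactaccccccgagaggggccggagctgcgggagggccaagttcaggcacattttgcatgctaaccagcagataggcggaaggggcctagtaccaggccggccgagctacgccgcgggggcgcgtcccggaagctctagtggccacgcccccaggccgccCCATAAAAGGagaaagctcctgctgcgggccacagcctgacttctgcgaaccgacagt
RefSeq windows were on hand for 8 of the 10 genes, all but *Egr1* and *Ier2*. The core TGACGT stood in 3 of the 8 (*Fos*, *Dusp1* and *Atf3*), against 6.47% of 32851 mouse promoter windows of the same length. The full TGACGTCA, which contains the core, was found only in *Dusp1* among the 8, at position -143 from the start, and in 1.55% of all windows. A CArG box stood in *Zfp36* alone, at -58, against 1.47% of windows, and TATAAA in *Fos* alone, at -33, against 7.59%. The AP-1 site (TGAGTCA, or TGACTCA on the other strand) was in none of the 8 and in 4.46% of windows. The window of *Jund* lies upstream of the start that GENCODE gives this gene. These are matches of letters, not measured binding, and elements farther upstream than 250 bases were not searched.

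After the cell filter 306 steady-state and 4198 AngII cells remained, with medians of 9105 and 1092 unique molecular identifiers (UMIs, each standing for 1 captured mRNA molecule). No barcode was shared between the libraries. Cells were assigned to a class by marker lists, for example *C1qa*, *Adgre1* and *Mrc1* for macrophages, *Cd3e* and *Trac* for T cells, and *Cd79a* and *Ms4a1* for B cells. By this rule 251 steady-state and 2575 AngII cells received a class, on a lead of at least 2-fold over the next list. In 57 and 537 cells the leading list stood between 1 and 4 times the next, around that limit. The macrophage list stood at 19879 and 17060 counts per 1000000 UMIs (CPM) in macrophage-gated cells. At steady state it stood at 38.7 CPM in T-cell-gated and 112 CPM in B-cell-gated cells. The gate used this list, so these levels follow from the rule and are no check of the names. *S100a8* and *S100a9*, not used for gating, reached 31813 CPM in steady-state and 36375 CPM in AngII neutrophil-gated cells. In macrophage- and mast-cell-gated AngII cells they stood at 246 and 5228 CPM.

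The 10 genes together made up 1.41% of all UMIs at steady state and 0.971% on AngII. *Fos* was the highest of them in both libraries, at 2833 and 2147 CPM, and stood at rank 36 and rank 60 among all genes. *Junb* came next, at 1826 and 1607 CPM. *Atf3* was the lowest, at 712 and 268 CPM. These are 3′-end UMI counts, which count molecules and need no division by transcript length.

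Levels differed widely between cell classes, and in both libraries neutrophils, mast cells and macrophages were the 3 highest and lymphocytes the lowest. On AngII, neutrophil-gated cells carried most, at 21859 CPM for the sum of the 10 genes, followed by mast cells at 14707, macrophages at 10876, type-2 dendritic cells at 10296 and classical monocytes at 10003 CPM. The last 2 classes overlapped in their counting intervals, 10123 to 10470 and 9852 to 10156 CPM. Nonclassical monocytes had 9081, type-1 dendritic cells 6074 and migratory dendritic cells 5642 CPM. B cells (4480 CPM), NK cells (4397 CPM) and T cells (3240 CPM) were lowest. The NK value rested on a single cell: without it the level was 2314 CPM. At steady state macrophages stood at 19193 CPM (103 cells), T cells at 4295 (39 cells) and B cells at 3812 CPM (48 cells). Neutrophils (29898 CPM, 5 cells) and mast cells (27356 CPM, 7 cells) stood above them, but a single cell held 53.4% and 55.1% of their member UMIs. Without that cell neutrophils had 24826 CPM. Mast cells, at 17943 CPM, no longer stood above macrophages, which had 18956 CPM without their own richest cell. The 5 steady-state neutrophils held 5804 CPM of the macrophage list and 2722 CPM of their own, against 1566 and 7380 CPM on AngII. In the 2 of 20000 UMIs or more the macrophage list stood at 7119 CPM and the 10 genes at 30180 CPM. In the 3 of 2000 to under 5000 UMIs these values were 153 and 28683 CPM. The part of macrophage RNA in the neutrophil values was not tested.

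**Figure D1:**
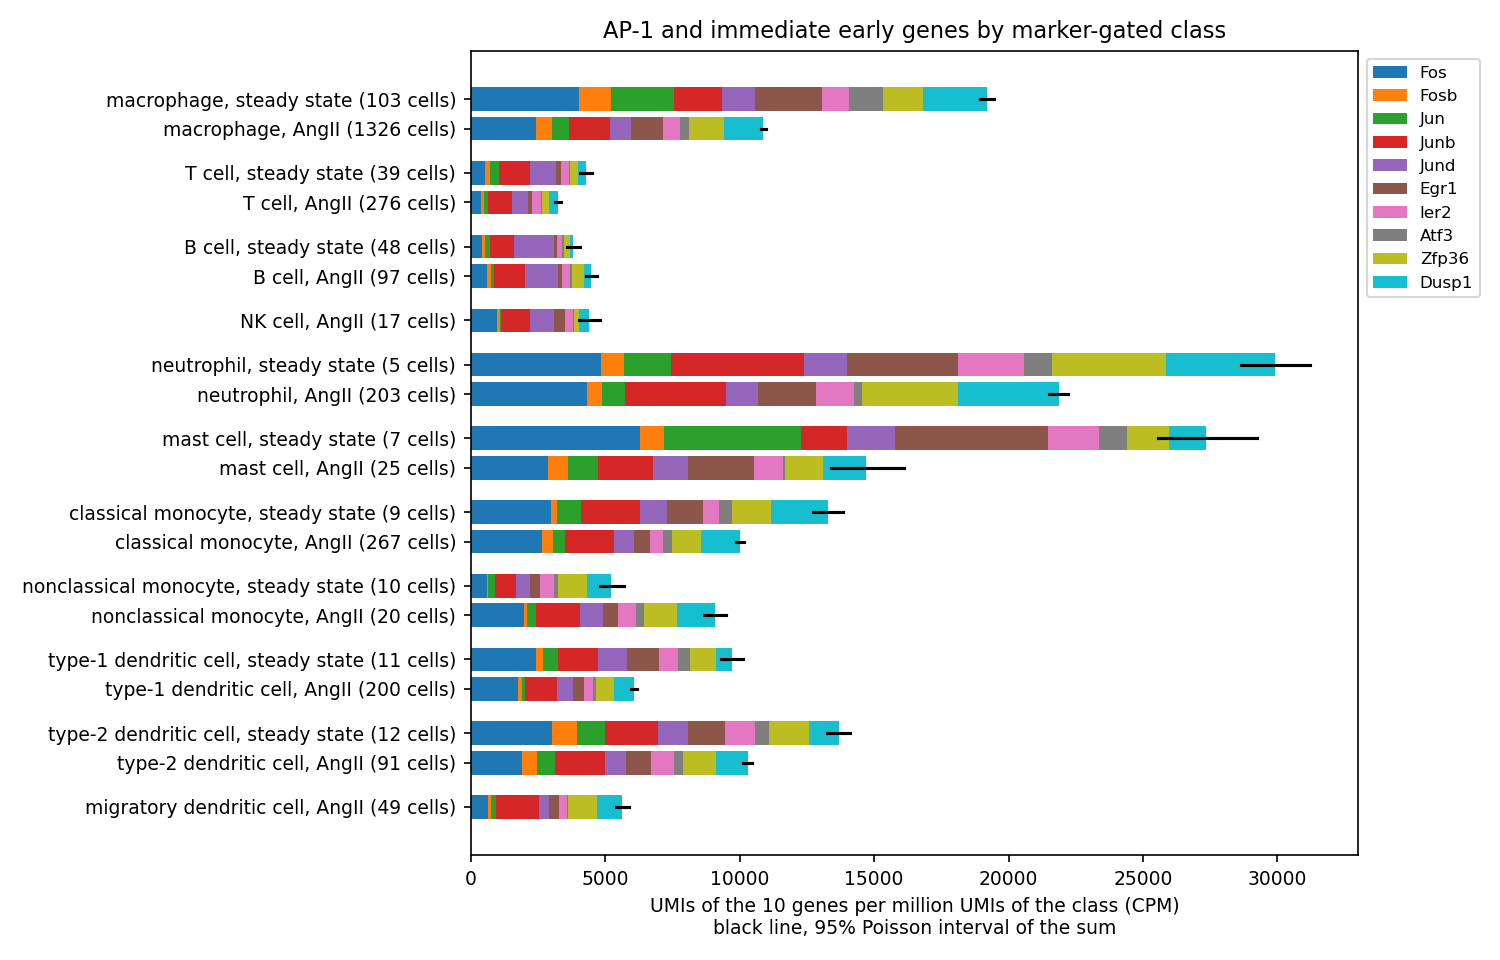
Horizontal bars give, for every class with 5 cells or more in each library, the summed level of the 10 genes in CPM, divided into the genes by colour, with the 95% Poisson interval of the sum as a black line. Neutrophils, mast cells and macrophages form the longest bars and lymphocytes the shortest, from 29898 CPM in steady-state neutrophils to 3240 CPM in AngII T cells.

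Lymphocytes and macrophages carried different members. In B cells *Jund* alone made up 38.9% of the summed UMIs at steady state and *Junb* 23.0%, and in T cells the pair made up 23.0% and 26.9%. In macrophages *Fos* led with 21.0%, followed by *Egr1* with 12.9%, *Dusp1* with 12.4% and *Jun* with 12.1%. JUND is the JUN protein that many resting cells hold constitutively, and JUNB can restrain JUN at shared sites.

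Within each library the sum was higher in macrophages than in the pooled T and B cells, 4.71-fold at steady state (4.52 to 4.91) and 3.05-fold on AngII (2.97 to 3.14). At steady state 8 of the 10 genes were at least 2-fold higher in macrophages, where 27.3% of the 2911 genes compared were. Genes were compared where they had 100 UMIs or more over both sides, and these are counts past a fold, not results of a test. On AngII it was again 8 of 10, against 20.6% of 7097 genes. The median gene of the 10 differed by 2.99 on the log2 scale at steady state and by 2.27 on AngII, and the median of all genes compared by 0.09 and -0.02.

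The FOS subunits were clearly higher in macrophages. *Fos* stood at 4038 CPM in steady-state macrophages and at 534 CPM in T and 414 CPM in B cells, and on AngII at 2409, 378 and 603 CPM. *Fosb* was 7.54-fold (6.13 to 9.38) higher in macrophages at steady state and 4.92-fold (4.25 to 5.72) on AngII.

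The JUN subunits fell into 3 different patterns. *Jun* was 8.97-fold (7.64 to 10.6) and 4.95-fold (4.31 to 5.72) higher in macrophages. *Junb* was higher by only 1.75-fold (1.60 to 1.91) and 1.59-fold (1.5 to 1.68). *Jund* was level in the 2 lineages, at 1.02-fold in both libraries, with intervals of 0.936 to 1.12 and 0.957 to 1.09.

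*Atf3*, a stress-induced repressor of inflammatory genes, had the widest difference, 29.8-fold at steady state, with 1266 CPM in macrophages and 20.9 and 68.9 CPM in T and B cells. On AngII the ratio was 8.66 (6.68 to 11.4). *Egr1*, a zinc-finger factor under SRF control, was 15.1-fold (12.4 to 18.6) and 8.18-fold (7.16 to 9.39) higher. Both steady-state values moved with single cells. When the cell with most UMIs of the gene was dropped from each class, a step chosen with the values known, *Atf3* and *Egr1* stood farther apart between the lineages, at 118 for *Atf3* (54.1 to 322, on 6 lymphocyte UMIs) and 51.7 for *Egr1* (35.7 to 77.9, on 28). *Ier2* reached 4.29-fold and 2.05-fold. Of the feedback genes, *Dusp1* was 11.5-fold and 4.72-fold higher, and *Zfp36* 5.07-fold and 3.93-fold. For all genes but *Jund* and *Junb* the interval at steady state lay above that on AngII, most narrowly for *Zfp36*, whose upper AngII bound was 4.30 and lower steady-state bound 4.34. The macrophage list in T cells was 38.7 CPM at steady state and 496 CPM on AngII, and in B cells 112 and 447 CPM. The part of such RNA in the lower AngII ratios was not tested.

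**Figure D2:**
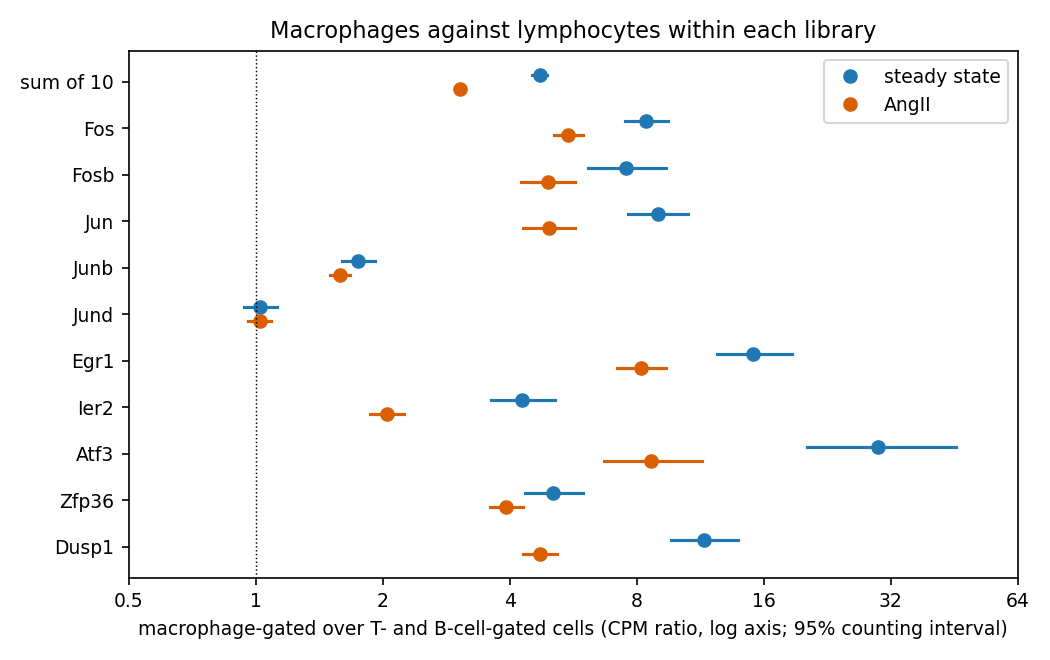
The ratio of CPM in macrophage-gated cells to that in T- and B-cell-gated cells is plotted on a log axis for the sum and each gene, with 95% counting intervals, for steady state (blue) and AngII (orange). *Jund* lies at 1.02 in both libraries, and *Atf3* lies farthest to the right at 29.8 and 8.66.

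In macrophage-gated cells the 10 genes were lower on AngII. The sum was 19193 CPM (18942 to 19446) at steady state and 10876 CPM (10786 to 10967) on AngII, a ratio of 0.567 (0.558 to 0.576). All 10 genes were lower, and 3 of them by 2-fold or more, against 5.14% of the 6669 genes compared. None was 2-fold higher, where 6.01% of genes were. The median of the 10 was -0.72 on the log2 scale, and that of all genes compared 0.01. *Jun* and *Fos* accounted for 20% and 19.6% of the difference in CPM, *Egr1* for 15.7%, *Atf3* for 11.3% and *Dusp1* for 11%.

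*Atf3* and *Jun* stood out. *Atf3* went from 1266 to 323 CPM, a ratio of 0.255 (0.238 to 0.274). *Jun* went from 2319.5 to 657 CPM, a ratio of 0.283 (0.269 to 0.298). Among the genes compared in macrophages, ordered from the lowest ratio upward, *Atf3* and *Jun* came at ranks 66 and 81. *Egr1* followed with a ratio of 0.471 (0.450 to 0.493), from 2470 to 1163 CPM. *Fosb* had a ratio of 0.509 and *Fos* one of 0.597. *Dusp1* (0.614), *Jund* (0.637) and *Ier2* (0.641) were lower by a like factor. *Junb*, at 1798 and 1516 CPM, and *Zfp36*, at 1468 and 1295 CPM, moved least, with ratios of 0.843 and 0.882.

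The balance within the JUN family differed between the libraries. In macrophages there were 1.29 *Jun* UMIs for each *Junb* UMI at steady state (1.22 to 1.37) and 0.433 on AngII (0.416 to 0.451). This ratio does not depend on the total used to scale the counts. It was lower on AngII in each of the 9 classes with at least 5 cells in both libraries, and in 8 of the 9 when the cell with most *Jun* UMIs was dropped from each. The exception was neutrophils, where 1 of 5 steady-state cells held 90% of the *Jun* UMIs. The ratio there was 0.349 at steady state and 0.221 on AngII, and without those cells 0.0574 (0.0292 to 0.102) and 0.203 (0.185 to 0.223). In type-1 dendritic cells it was 0.386 and 0.0923, in T cells 0.276 and 0.147, and in B cells 0.211 and 0.120, where the intervals met (0.153 to 0.286 and 0.0892 to 0.158). Classical monocytes had 0.410 and 0.259, but 1 of 9 steady-state cells held 52.6% of the *Jun* UMIs. Without the richest cells their values were 0.239 (0.182 to 0.309) and 0.230 (0.211 to 0.249). By the same step the intervals also overlapped in type-2 dendritic cells (0.336 to 0.468 and 0.321 to 0.376) and nonclassical monocytes (0.136 to 0.424 and 0.133 to 0.244). B cells overlapped too (0.114 to 0.237 and 0.0773 to 0.145). Only in macrophages, T cells, type-1 dendritic cells and mast cells did the AngII interval lie wholly lower.

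**Figure D3:**
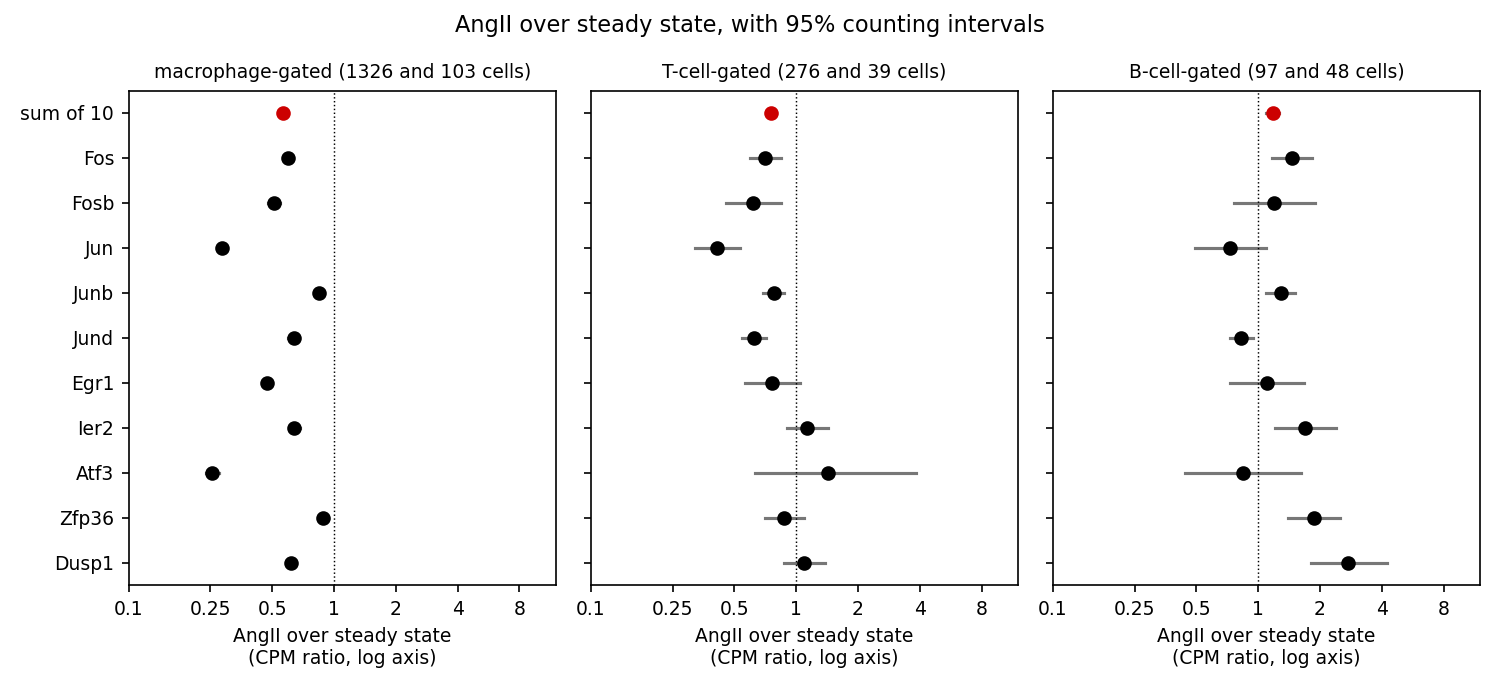
The AngII to steady-state ratio of CPM is plotted on a log axis for the sum (red) and each gene (black) in macrophage-, T-cell- and B-cell-gated cells, with 95% counting intervals as grey lines. All macrophage points lie left of 1, from 0.255 for *Atf3* to 0.882 for *Zfp36*, whereas in B cells *Dusp1* lies at 2.73.

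The lower level was seen in each macrophage subset with enough cells in both libraries. Subset lists were scored against the macrophage mean of the same library, so a name need not pick like cells in both. The resident list stood at 16735 CPM in steady-state and 9939 CPM in AngII cells that it led. In cells with no leading list it stood at 10834 and 4277 CPM. Cells led by the resident list (*Lyve1*, *Folr2*, *Cd163* and others) had 18453 CPM at steady state (40 cells) and 11681 CPM on AngII (289 cells), a ratio of 0.633. Cells led by the antigen-presentation list (*H2-Ab1*, *Cd74* and others) had 25912 (21 cells) and 10479 CPM (338 cells), a ratio of 0.404. Cells with no leading list had a ratio of 0.561. *Jun* was at 0.314, 0.228 and 0.333 of its steady-state level in these subsets, and *Atf3* at 0.240, 0.261 and 0.217. *Egr1* differed more between them, at 0.736 in resident, 0.291 in antigen-presenting and 0.406 in the remaining cells. *Zfp36* was level in resident cells (1.03).

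Across depths per cell the level in AngII macrophages ranged from 9902 CPM in cells of 500 to under 1000 UMIs to 12923 CPM in cells of 2000 to under 5000 UMIs. At matched depth the AngII to steady-state ratio of the sum was 0.878 for 2000 to under 5000 UMIs, 0.499 for 5000 to under 10000, 0.565 for 10000 to under 20000 and 0.713 for cells of 20000 UMIs or more. The first of these bins held 9 steady-state cells and the last 10. *Jun* and *Atf3* were lower on AngII in every bin, at most 0.607 and 0.464. *Junb* and *Jund* stood at 1.38 (1.0 to 1.95) and 1.47 (0.953 to 2.37) in the shallowest.

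**Figure D4:**
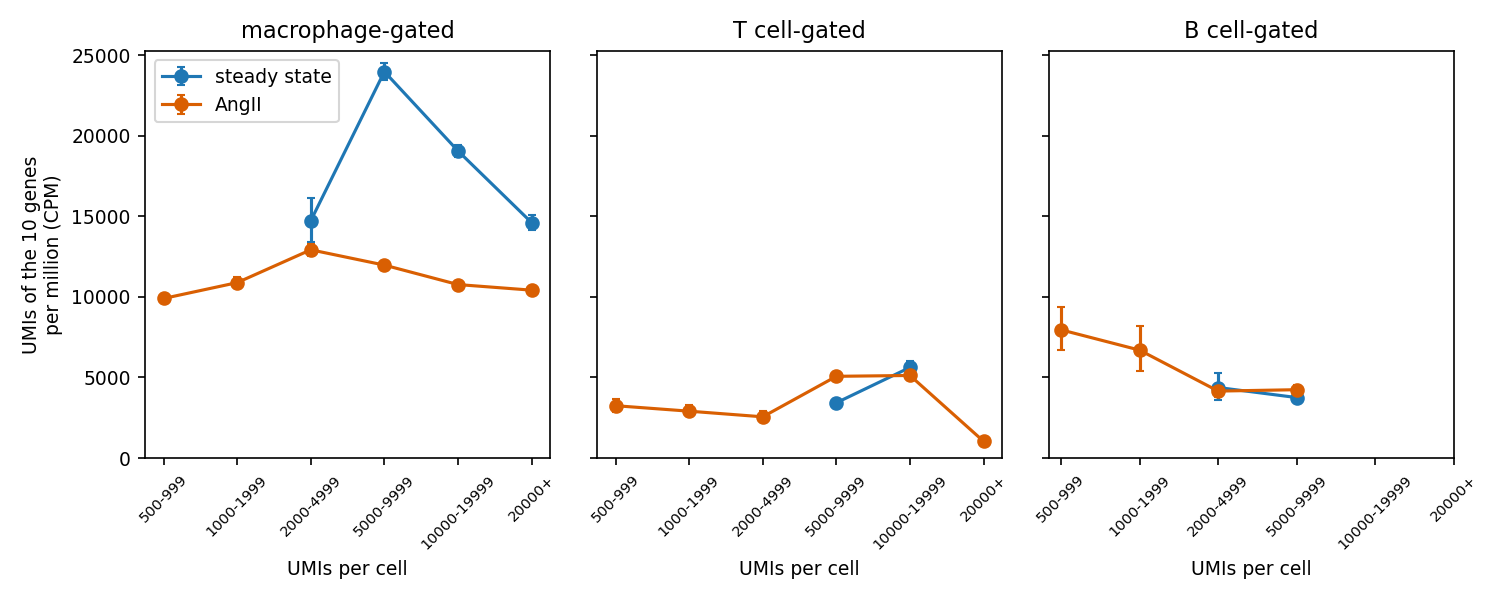
The summed level of the 10 genes in CPM is plotted against UMIs per cell for macrophage-, T-cell- and B-cell-gated cells at steady state (blue) and on AngII (orange), for bins of 5 cells or more, with 95% Poisson intervals. Steady-state macrophages lie above AngII macrophages in all 4 shared bins, by most at 5000 to under 10000 UMIs (23979 against 11974 CPM).

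In T cells the sum was 4295 CPM at steady state and 3240 CPM on AngII, a ratio of 0.754 (0.710 to 0.802). *Jun* alone was 2-fold lower, at 0.413 (0.321 to 0.534), 1 of 9 members compared against 5.84% of 2329 genes. The median of the members was -0.39 on the log2 scale and that of all genes compared 0.29. The direction of the sum depended on depth. In cells of 5000 to under 10000 UMIs it was 1.48-fold higher on AngII (1.35 to 1.62), and for 10000 to under 20000 UMIs the ratio was 0.911 (0.830 to 1.0). In the same bins *Jun* stood at 0.479 (0.333 to 0.686) and 0.924 (0.559 to 1.55). The 12 AngII T cells of 20000 UMIs or more had 1039 CPM, and steady state had no T cell of that depth. The ratio of 0.754 includes these 12 cells, and their part in it was not tested.

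In B cells the sum was slightly higher on AngII, 4480 against 3812 CPM (ratio 1.18, 1.09 to 1.27). *Dusp1* went from 105 to 287 CPM, a ratio of 2.73 (1.81 to 4.25), and was the only one of 8 members compared to pass 2-fold, where 2.86% of 909 genes did. *Zfp36*, the other feedback gene, had a ratio of 1.86 (1.40 to 2.51). At matched depth the sum differed less, at 0.949 for 2000 to under 5000 and 1.13 for 5000 to under 10000 UMIs. The 27 AngII B cells under 1000 UMIs had 7959 CPM, and their macrophage list stood at 2030 CPM against 314 CPM in B cells of 5000 to under 10000 UMIs. The part of macrophage RNA in the B-cell values was not tested.

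Among the rarer myeloid classes the sum was also lower on AngII in neutrophils (ratio 0.731), classical monocytes (0.754), type-1 (0.625) and type-2 dendritic cells (0.752) and mast cells (0.538), although steady state gave only 5 to 12 cells for each. Without the cell of each library richest in the 10 genes, the sum stood at 0.756 (0.653 to 0.874) in mast cells. By the same step it was 0.867 (0.812 to 0.926) in neutrophils and 0.819 (0.788 to 0.852) in type-2 dendritic cells. Classical monocytes stood at 0.759 and type-1 dendritic cells at 0.661. In neutrophils 2 of 10 members were 2-fold lower, *Atf3* (0.293) and *Jun* (0.483), against 5.53% of 1283 genes. The *Jun* value turned to 2.53 (1.43 to 4.92) when the cell with most *Jun* UMIs was dropped from each library, and *Atf3* stood at 0.302 by the same step. *Atf3* was 1207 CPM in the 2 steady-state neutrophils of 20000 UMIs or more, whose macrophage list stood at 7119 CPM. In the 3 of 2000 to under 5000 UMIs it was 381 CPM. AngII neutrophils had 356 and 333 CPM in these bins, so the lower *Atf3* rested on those 2 cells. In classical monocytes it was *Egr1* alone (0.430), 1 of 10 against 5.37%, and the ratio was 0.916 (0.741 to 1.14) without the cell richest in *Egr1*. In type-2 dendritic cells it was none of 10, against 3.66%. In mast cells 3 of 4 members compared were, *Jun* (0.215), *Egr1* (0.440) and *Fos* (0.456), against 12.7% of 71 genes. These 3 passed the UMI limit through steady state (162, 179 and 199 UMIs, against 35, 79 and 91 on AngII). The limit thus favoured members high at steady state, so the 3 of 4 cannot be read against the 12.7%. Without the cell richest in each gene, *Jun* and *Egr1* stood at 0.251 and 0.334 and *Fos* at 0.702 (0.50 to 0.985). In type-1 dendritic cells 4 of 10 members were 2-fold lower, against 3.86% of 2590 genes: *Jun* (0.186), *Atf3* (0.326), *Egr1* (0.336) and *Ier2* (0.439). Nonclassical monocytes went the other way, from 5231 to 9081 CPM (ratio 1.74, 10 and 20 cells). Their single-cell medians were 5224 and 6655 CPM. Of these members 2 of 7 compared were 2-fold higher, *Fos* (3.20) and *Junb* (2.07), against 6.58% of 456 genes. Both passed the 100-UMI limit through AngII (401 and 332 UMIs, against 61 and 78). On AngII this class held more of the macrophage list (2713 CPM) than of its own (1578.5 CPM), against 314 and 3025 CPM at steady state. The name is therefore less sure on AngII.

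Neutrophils of the AngII library differed from macrophages of the same library in which members they held. Their sum was 2.01-fold higher (1.97 to 2.05). *Zfp36* (2.76-fold), *Dusp1* (2.56-fold), *Junb* (2.49-fold) and *Ier2* (2.13-fold) were at least 2-fold higher, 4 of 10 against 9.69% of 6430 genes. *Atf3* and *Fosb* were not higher, at 0.953 (0.823 to 1.10) and 0.957 (0.861 to 1.06). The macrophage list in neutrophils was 1566 CPM. Classical monocytes had 0.920 of the macrophage level for the sum. *Egr1* was at 0.499 (0.466 to 0.534) and was the only member 2-fold lower, against 6.85% of 6761 genes, while *Fosb* stood at 0.628 (0.576 to 0.685), *Jun* at 0.716 (0.661 to 0.774) and *Ier2* at 0.718 (0.663 to 0.776).

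To compare single cells, each cell was thinned to 2000 UMIs and shallower cells were left out, which kept 101 of 103 steady-state and 376 of 1326 AngII macrophages. Steady-state macrophages held between 0 and 114 UMIs of the 10 genes, with a median of 40 and quartiles of 25 and 55. AngII macrophages held between 0 and 66, with a median of 23 and quartiles of 14 and 32. The 2 ranges overlapped, but 33.7% of steady-state and 2.93% of AngII macrophages held 50 or more. T cells had medians of 5 and 4, B cells of 7 in both libraries, and AngII neutrophils of 44. The variance over the mean was 16.2 in steady-state and 7.20 in AngII macrophages, where counting error alone gives about 1.

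**Figure D5:**
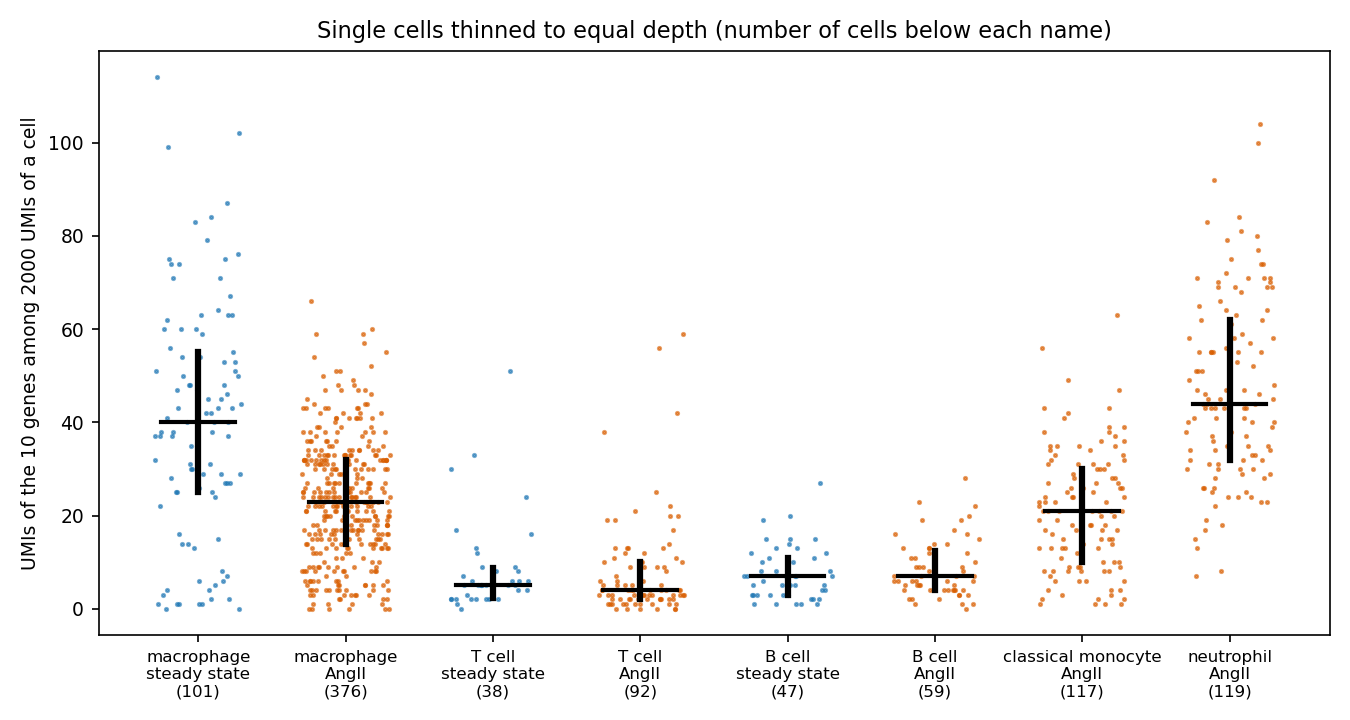
Each point is a cell thinned to 2000 UMIs, and its height is the number of those UMIs that came from the 10 genes. Black bars mark the median and the quartiles. Steady-state macrophages spread from 0 to 114 around a median of 40, AngII macrophages from 0 to 66 around 23, and most lymphocytes lie at or below 10.

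The genes varied together from macrophage to macrophage. Over 101 steady-state cells at equal depth, all 45 pairs had a Spearman rho above 0, from 0.170 (*Fosb* with *Ier2*) to 0.673 (*Fos* with *Zfp36*), with a median of 0.480. Over 376 AngII cells the range was 0.132 to 0.459, with a median of 0.281. These cells share a library, and the lower AngII counts leave more sampling noise in each pair. In steady-state macrophages the sum had a rho of 0.808 with the sum of 22 other immediate early genes, 0.108 with the heat shock list, 0.0285 with the macrophage list, and -0.119 with the depth before thinning.

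Some macrophages held few of these transcripts. At steady state 16 of the 101 cells had less than 5000 CPM, a limit set after the values were seen, and their level was 1660 CPM against 22594 CPM in the other 85. The low cells were as deep as the rest (median 10392 and 9704 UMIs) and stood close to them in the macrophage list (20316 and 19808 CPM), the heat shock list (2992 and 3161 CPM) and the mitochondrial share (2.31% and 1.99%). Of the low cells 13 had a *Yfp* UMI, and of the others 68. The other immediate early genes were lower in them as well, 3549 against 14041 CPM. On AngII 60 of 376 macrophages were below the same limit, at 2406 CPM, and the others stood at 13277 CPM. There the low cells were deeper, with a median of 12293 UMIs against 7520.

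*Yfp* status was a weak divider. At steady state the sum was 19081 CPM in 81 macrophages with a *Yfp* UMI and 19909 CPM in 22 without (ratio 0.958, 0.923 to 0.996), and on AngII 10602 CPM in 243 and 11103 CPM in 1083 cells (0.955, 0.939 to 0.971). With every cell weighted equally both ratios passed to the other side of 1, at 1.07 and 1.01. No member differed by 2-fold in either library, where 2.08% of genes were higher and 0.427% lower at steady state, and 0.419% and 0.553% on AngII. *Atf3* (1.43, 1.20 to 1.71) and *Jun* (1.28, 1.13 to 1.45) were higher in *Yfp*+ cells at steady state, and *Ier2* (0.679), *Zfp36* (0.704) and *Junb* (0.726) were lower. On AngII *Jun* had a ratio of 1.12 (1.04 to 1.19) and *Ier2* of 0.856 (0.799 to 0.917). A cell without a *Yfp* UMI may still carry the reporter, more often when shallow.

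Beyond the 10 genes, the wider immediate early list was mostly lower in AngII macrophages too. Of 22 such genes 20 were compared, with a median of -0.74 on the log2 scale. At least 2-fold lower on AngII were 7 and higher 3, against 5.14% and 6.01% of all 6669 genes compared. *Egr3*, a relative of *Egr1*, was lowest, at 0.236 (203 and 48.0 CPM at steady state and on AngII), and *Dusp5*, an ERK phosphatase, was highest at 2.72 (14.6 and 39.7 CPM). Of the other AP-1 subunits 7 of 9 were compared and 1 was 2-fold lower, the repressor *Jdp2* (0.446), whereas *Batf* was highest at 1.78. None of 10 compared upstream kinases and SRF partners passed 2-fold in either direction, a count close to those shares of all genes. They ran from *Mapk14* (p38α) at 0.705 to *Map2k4* at 1.49.

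The heat shock list, which marks protein stress, did not follow the members across classes. It stood at 3130 CPM in macrophages, 3472 in T cells and 2535 in B cells at steady state, and at 3706, 5816 and 2761 CPM on AngII. In macrophages 2 of its 10 genes were 2-fold lower on AngII, *Hspa1a* (0.334) and *Dnajb1* (0.387), against 5.14% of all genes compared. *Hspe1* was highest at 1.94. The inducible pair *Hspa1a* and *Hspa1b*, singled out after its values were seen and summed because the 2 sequences are nearly identical, behaved differently from the rest of the list. At steady state it had 160 UMIs (138 CPM) in macrophages and 3 UMIs (4.91 CPM) in T and B cells together. On AngII it stood at 58.4 CPM in macrophages and 14.5 CPM in lymphocytes. In the 16 macrophages with few member transcripts at steady state it was 37.1 CPM, and in the other 85 it was 157 CPM. Its link to tissue digestion was not tested.

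Across 13 class and library groups with 20 cells or more, the genes whose level most resembled the mean of the 10 were *Gm26532*, *Cd33*, *Egr2*, *Zfhx3* and *Mknk1*, with Pearson r from 0.950 to 0.925 among 5149 genes compared. *Cd33*, a sialic-acid-binding lectin of myeloid cells, was 224 CPM in steady-state macrophages, 88.8 CPM in AngII macrophages, 381 CPM in AngII neutrophils and 3.42 CPM in AngII T cells. *Egr2* stood at 396, 122, 223 and 13.7 CPM in the same groups. Within the 10 genes, *Egr1* and *Fos* resembled the mean of the other 9 most (r = 0.961 and 0.950) and *Jund* least (r = 0.201). The groups share 2 libraries, so these values are descriptions.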

How the data were processed

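Polyadenylated RNA of single cells had been captured with the Chromium 3′ chemistry. The deposited values are UMI counts per gene and cell that the authors made with Cell Ranger 3.1.0, a version also given in the submitters' processing notes, on GRCm38.p6 with the *Yfp* sequence added. The libraries held 346 and 4419 barcodes, or 4009678 and 20481854 UMIs. The cell filter used the limits given in the study's methods: 300 to 6500 detected genes and no more than 5% of UMIs from mitochondrial genes. The study reports 346 and 4419 analysed cells, as many as the deposited barcodes, and the filter here kept 306 and 4198 of them. A cell's class was the list of markers with the highest level relative to the library mean, with at least 3 UMIs from 2 markers and a 2-fold lead. Cells at or above the mean for the macrophage list could only be macrophage-gated, and cells that 2 lists claimed, among them doublets, got no class, and no doublet caller was run. The marker lists preceded the choice of this scoring, which was settled on the data. Levels are summed UMIs per 1000000 (CPM), with exact Poisson intervals, and ratios have exact conditional binomial 95% intervals. Genes with 100 UMIs or more over both sides were compared with a 2-fold limit, with no test, and the 10 genes, the extremes of each list and 5 genes of like pattern were named by rule. The genes and lists were chosen with earlier results of these data known. Ratios were tested on simulated counts that held counting error only, and thinning was checked on the steady-state cells themselves. Python 3.11.15, numpy 2.4.6 and scipy 1.17.1 were used. The coordinates of the windows follow RefSeq.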

Additional observations from a re-analysis of the deposited data

Results flagged for a closer look

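Most classes had lower levels of the 10 genes on AngII, as macrophages did, and the values below went the other way with a counting interval above 1. The difference between each of these classes and macrophages was not tested, since each condition is 1 library. In B cells (97 AngII and 48 steady-state cells) the AngII to steady-state ratio was 1.18 for the sum, 1.46 for *Fos*, 1.28 for *Junb*, 1.68 for *Ier2*, 1.86 for *Zfp36* and 2.73 for *Dusp1*. In nonclassical monocytes it was 1.74 for the sum, 3.20 for *Fos*, 3.17 for *Fosb* (26 and 4 UMIs, of which 15 and 1 remained without the cell richest in each library), 2.07 for *Junb*, 1.73 for *Jund*, 2.27 for *Atf3* and 1.55 for *Dusp1*. That class held 20 AngII and 10 steady-state cells, of which 5 and 1 were above 10000 CPM. Its macrophage list stood at 2713 and 314 CPM and its own list at 1578.5 and 3025 CPM. The part of macrophage RNA in the result was not tested. *Fosb* had a ratio of 1.59 in classical monocytes (9 steady-state cells) and *Dusp1* one of 1.30 in type-1 dendritic cells (11 steady-state cells).

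Barcodes that the cell filter left out also held these transcripts. The 40 such barcodes of the steady-state library had 18675 CPM for the sum of the 10 genes, and the 221 of the AngII library 9817 CPM.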

How the results depend on the processing

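Of 63 values of the sum under an alternative, 61 stayed on the same side of 1 as the reported ratio, and of 630 values of single genes 590 did. Over these alternatives the AngII to steady-state ratio of the sum lay between 0.517 and 0.574 in macrophages. They do not include the bins of matched depth, where it ran from 0.499 to 0.878, or the macrophage subsets, where it ran from 0.404 to 0.633. A stricter gate gave 0.555 in macrophages and 0.691 in T cells. Weighting every cell equally (mean of single-cell CPM) gave 0.517 in macrophages, 0.807 in T cells, 1.46 in B cells, and macrophage over lymphocyte ratios of 5.14 at steady state and 2.67 on AngII. The same weighting reversed the *Yfp*+ over *Yfp*- ratio to 1.07 at steady state and 1.01 on AngII, and single genes to 1.01 (*Fos*, T cells), 1.02 (*Egr1*, *Yfp* at steady state), 1.05 (*Jund*) and 1.03 (*Ier2*, both *Yfp* on AngII). Without mitochondrial and ribosomal protein genes in the total the T-cell ratio was 0.676 and the macrophage over lymphocyte ratios 3.57 and 2.46. Thinning to 1000 UMIs gave 2.95 for the latter on AngII and reversed *Egr1* by *Yfp* at steady state to 1.18. When the cell richest in these UMIs was dropped from each group, the macrophage over lymphocyte ratios were 5.01 and 3.21. The *Yfp* ratio on AngII was 0.930 with at least 1000 genes per cell and 0.933 with at least 2000 UMIs. A gate without the macrophage-list limit, added after the data were seen, gave 1.70 in B cells and 2.53 for macrophages over lymphocytes on AngII. Dropping from each group the cell richest in the gene itself, also added then and not among the counts above, reversed *Jun* in neutrophils to 2.53. It also took *Egr1* and *Zfp36* in T cells, whose reported intervals hold 1, to 1.76 and 1.47. The cause of these shifts was not tested. No paired analysis was possible because each condition is 1 library and the labels give no replicate numbers. With a median of 1092 UMIs per AngII cell, single-cell values there rest on the deeper cells.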
